A study of Mus musculus with 12 samples.

Results

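Laminins, nidogens, nephronectin and the integrins that bind them were examined in the neonatal cochlea. The 40 genes are 5 laminin alpha, 3 laminin beta and 2 laminin gamma genes, the 2 nidogens, nephronectin (Npnt), 18 integrin alpha and 9 integrin beta genes. They were chosen by gene symbol among the 19938 genes that had an array entry with a single symbol. The choice by symbol does not use their signal, but it was made with earlier results of these data known. The symbol rule also matches Itgb3bp, which encodes a centromere protein and no integrin, and that gene was left out. Each array was hybridized with cDNA from pooled cochlear tissue of wild-type C57BL/6 mice at P0 or P8, taken from the base, the middle or the apex of the cochlea. The tissue held the organ of Corti, the spiral limbus and the lateral wall after the otic capsule had been removed, and the labels name 80 temporal bones for the dissection. For every age and region (6 groups) there were 2 arrays, 1 from dissection set 1 and 1 from dissection set 2, 12 in all. The sets follow the year in the sample titles. Cochleae of an age and set were cut into 3 pieces, and the pieces of each region were pooled separately. The 3 regions of an age and set thus share cochleae and are together called a pool here. The sex of the pups is not given in the sources used here.

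Laminins are trimers of an alpha, a beta and a gamma chain and form the sheet of a basement membrane on which epithelial, nerve, muscle, fat and vessel cells rest. Nidogens tie the laminin sheet to the collagen IV network. Integrins are receptors made of an alpha and a beta chain, and the pairing decides whether a cell binds laminin, collagen, fibronectin or a ligand on another cell. In the cochlea, basement membranes lie under the sensory epithelium and around the vessels of the stria vascularis and the nerve fibres. Nephronectin is a matrix protein of basement membranes and the main ligand of the receptor formed by Itga8 with Itgb1.

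Values are RMA signals on the log2 scale, on which a difference of 1 is a doubling. A gene was tested where its mean log2 signal exceeded 6 in at least 1 of the 6 groups, which held for 39 of the 40 genes and for 16306 genes in all. Itgax stayed under this level in every group, with log2 signals of 5.46 to 6.17 over the 12 arrays, and Itgae exceeded it in 1 group only. The other 38 genes exceeded it in every group. To pass, a gene needed a limma p under 0.05 after Benjamini-Hochberg adjustment over all tested genes, together with a fold of at least 2 for P8 over P0 or of at least 1.5 for apex over base. Arrays of the same group differed by an SD of 0.175 at the median and 0.510 at the 90th percentile of all tested genes, and 36.4% of the variance lay on a principal component that told set 1 from set 2. Hair cell, supporting cell, strial and spiral ligament fibrocyte markers all had a mean log2 signal above 6 over the 12 arrays. In such bulk tissue, fewer cells of a type and less RNA per cell cannot be told apart.

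**Figure D1:**
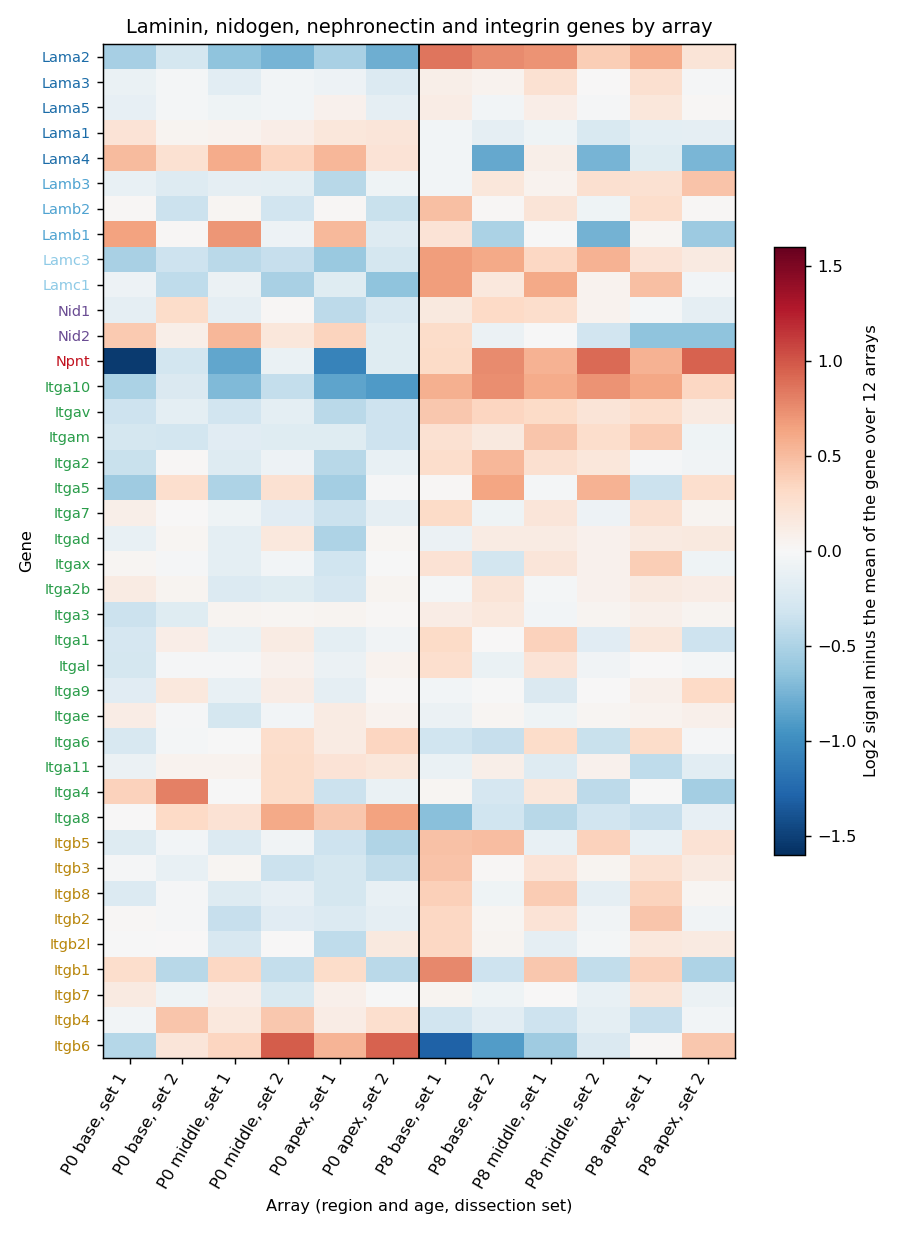
Log2 signal of the 40 genes (rows, names coloured by family) on the 12 arrays (columns, grouped by age, region and dissection set), each as the difference from that gene's mean over the 12 arrays. Npnt, Lama2 and Itga10 run from blue at P0 to red at P8, Itgb6 is lowest in the base at both ages, and Itgb1 and Lamb1 alternate between the dissection sets.

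The promoters of 3 genes are shown. Npnt and Itga10 rose from P0 to P8, and Itgb6 was the gene with the steepest difference along the cochlea. The promoter of Lama2, which also rose, is not shown. They are the 250 bases before the transcription start in the RefSeq annotation of build GRCm38.p6, written 5′ to 3′ on the strand of the gene, with matches to 4 searched motifs in capitals. The searches covered both strands. The TATA box was searched as TATAAA. The GC box was searched as GGGCGG. The CCAAT box was searched by its name. The AP-1 site was searched as TGANTCA, where N is any base. No match overlapped another in these windows.
Npnt, chr3:132950292-132950541, minus strand: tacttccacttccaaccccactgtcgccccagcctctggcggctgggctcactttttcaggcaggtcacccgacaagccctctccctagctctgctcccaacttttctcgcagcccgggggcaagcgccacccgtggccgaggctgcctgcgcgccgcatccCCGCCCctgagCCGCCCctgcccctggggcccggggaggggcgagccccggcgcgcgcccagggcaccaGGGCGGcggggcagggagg
Itga10, chr3:96645334-96645583, plus strand: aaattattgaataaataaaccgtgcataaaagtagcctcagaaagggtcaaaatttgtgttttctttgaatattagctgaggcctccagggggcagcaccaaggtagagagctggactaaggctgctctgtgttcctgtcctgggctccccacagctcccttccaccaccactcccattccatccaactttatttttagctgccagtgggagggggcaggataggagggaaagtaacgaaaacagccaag
Itgb6, chr2:60722604-60722853, minus strand: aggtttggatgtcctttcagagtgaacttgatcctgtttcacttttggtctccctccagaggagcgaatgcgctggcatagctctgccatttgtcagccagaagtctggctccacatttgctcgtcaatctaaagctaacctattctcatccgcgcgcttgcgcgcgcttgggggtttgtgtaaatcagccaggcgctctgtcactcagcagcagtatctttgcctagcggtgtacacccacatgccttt
The Npnt window held 3 GC boxes, starting 88, 77 and 19 bases before the start, and 21 CpG dinucleotides at a GC content of 74.0%. The Itga10 window held no match to any of the 4 motifs, 2 CpG dinucleotides and a GC content of 48.0%. The Itgb6 window also held no match, with 11 CpG dinucleotides and a GC content of 52.0%. Over the same window of all 32851 promoters, the share with a match was 12.4% for the TATA box, 32.7% for the GC box, 33.8% for the CCAAT box and 6.75% for the AP-1 site, and the medians were 6 CpG dinucleotides and a GC content of 52.4%. Thus the windows of Npnt and Itga10, 2 of the 3 genes that passed with higher signal at P8, differed in CpG number and in GC content. An entry was found for 26 of the 40 genes. These counts describe the letters of the windows and no binding was measured.

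From P0 to P8, nephronectin, the laminin alpha chain Lama2 and the collagen receptor chain Itga10 rose more than 2-fold, and none of the 40 genes passed in the other direction. These 3 of 39 tested genes stand beside 3.20% of all tested genes that passed in either direction, 2.06% with higher and 1.14% with lower signal at P8. The median difference of P8 and P0 over the 39 genes was 0.17 on the log2 scale, beside −0.00 over all tested genes. Of the 39 genes, 28 were higher and 11 lower at P8, beside 8117 higher and 8189 lower of the 16306 tested genes.

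Npnt had log2 signals between 8.92 and 10.34 on the 6 arrays of P0, with a median of 9.88, and between 10.76 and 11.39 on the 6 arrays of P8, with a median of 11.10. All P8 arrays were above all P0 arrays. The difference was 1.34 ± 0.26 (SE), a fold of 2.54, with an adjusted p of 0.00730. Set 1 lay below set 2 in every group of Npnt, and the lowest array was the P0 base of set 1 at 8.92, against 10.15 in set 2. The difference was nevertheless present in both sets, at 1.62 in set 1 and 1.06 in set 2, and in each region, where it came to 1.45 (base), 1.20 (middle) and 1.38 (apex).

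Itga8, the alpha chain of the nephronectin receptor, ran the other way. Its log2 signal lay between 10.94 and 11.59 at P0, with a median of 11.31, and between 10.27 and 10.81 at P8, with a median of 10.60. The ages did not overlap, and the difference was −0.74 ± 0.12 (SE) with an adjusted p of 0.00245, which is a fold of 1.67 and so below the threshold of 2. It was −0.71 in set 1 and −0.77 in set 2. The beta chain of that receptor, Itgb1, which pairs with many alpha chains, had a difference of 0.12 ± 0.29 (SE) and an adjusted p of 0.815. Itgb1 differed more between the dissection sets than between the ages, at −0.83 for set 2 minus set 1.

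Itga10, which with Itgb1 binds collagens and is best known from cartilage, had log2 signals of 8.00 to 8.69 at P0, with a median of 8.31, and of 9.24 to 9.67 at P8, with a median of 9.52. The ages were separated by a wide gap in both sets. The difference was 1.19 ± 0.10 (SE), a fold of 2.29, with an adjusted p of 9.78e-05. Among the other collagen-binding chains, Itga2 had a difference of 0.39 ± 0.10 (SE) with an adjusted p of 0.0264 and a fold of 1.31. Itga1 stood at 0.12 with an adjusted p of 0.632. Itga11 stood at −0.24 with an adjusted p of 0.118, or of 0.0144 with the dissection set as a block. For P8 over P0, the adjusted p with this block is given only for genes that it brought under 0.05. With it, 24 of the 39 genes were under 0.05, beside 41.3% of all tested genes. The block still counts the 3 regions of a pool as separate arrays.

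Lama2, the laminin alpha chain of muscle and of Schwann cell basement membranes, had log2 signals of 8.97 to 9.47 at P0, with a median of 9.17, and of 9.96 to 10.61 at P8, with a median of 10.42. No P8 array reached down to the P0 range. The difference was 1.17 ± 0.11 (SE), a fold of 2.25, with an adjusted p of 1.58e-04, and by region it came to 1.21 (base), 1.25 (middle) and 1.05 (apex). Each of these 3 genes also passed without any single array. When the regions of a pool were averaged first, leaving 2 pools against 2, none of them passed, with adjusted p of 0.0815 for Itga10, 0.0909 for Lama2 and 0.250 for Npnt, and 5 genes passed in all. The study itself named Npnt, Lama2 and Itga10 as changed on these same samples, so their presence here is no independent evidence.

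**Figure D2:**
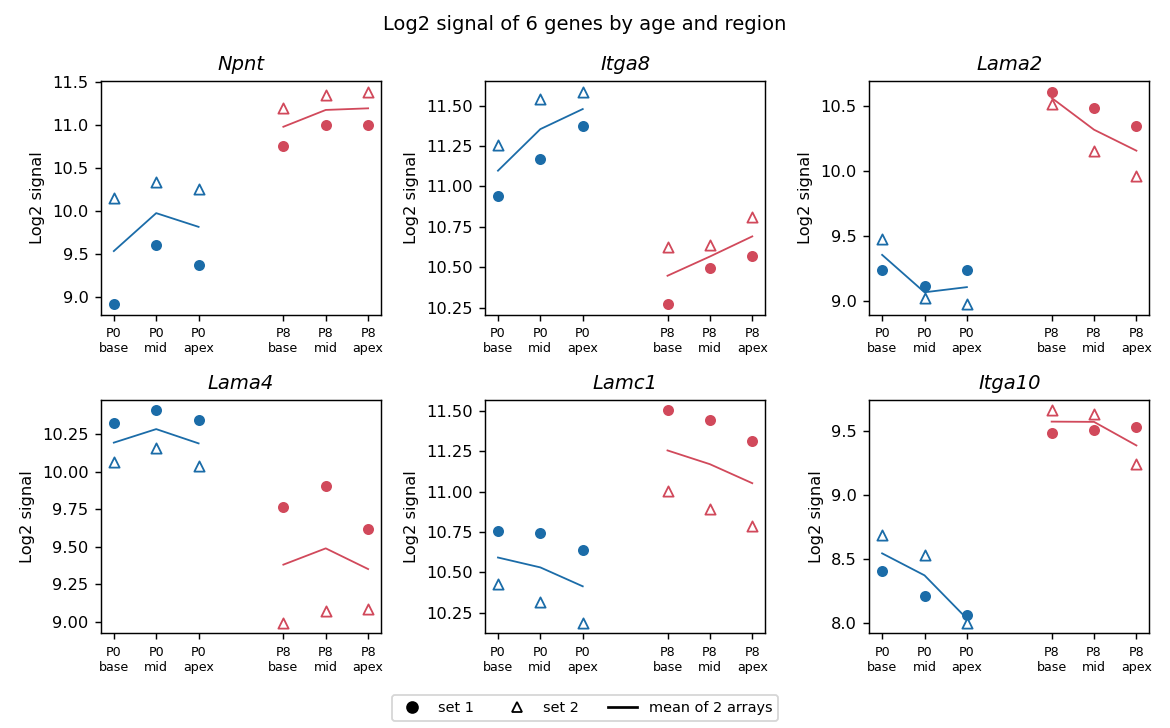
Log2 signal (vertical axes) of Npnt, Itga8, Lama2, Lama4, Lamc1 and Itga10 in base, middle and apex at P0 (blue) and P8 (red), with circles for dissection set 1, triangles for set 2 and lines through the means of 2 arrays. The P0 and P8 arrays do not overlap in any of the 6 genes, and for Lama4 and Lamc1 set 1 lies above set 2 throughout.

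The other laminin chains showed smaller differences that were not uniform in direction. Lama4, the laminin alpha chain of vessels and other mesenchymal basement membranes, had log2 signals of 10.04 to 10.41 at P0, with a median of 10.24, and of 8.99 to 9.91 at P8, with a median of 9.35. All P8 arrays lay below all P0 arrays, and the difference was −0.82 ± 0.20 (SE) with an adjusted p of 0.0201 and a fold of 1.76. It was −0.60 in set 1 and −1.04 in set 2. Lama1, a chain of early embryonic basement membranes, stood at −0.27 ± 0.07 (SE) with an adjusted p of 0.0356, and its ages did not overlap either. Lama3 and Lama5, both chains of epithelial basement membranes, had differences of 0.21 and 0.12 with adjusted p of 0.127, or of 0.0408 with the block, and of 0.352.

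Of the gamma chains, Lamc1, the common partner in most laminins, had log2 signals of 10.19 to 10.76 at P0, with a median of 10.53, and of 10.79 to 11.50 at P8, with a median of 11.16. The difference of 0.65 ± 0.17 (SE) had an adjusted p of 0.0304 and a fold of 1.57. Lamc3 had log2 signals of 7.39 to 7.71 at P0, with a median of 7.59, and of 8.14 to 8.65 at P8, with a median of 8.43. Its difference of 0.84 ± 0.09 (SE) had an adjusted p of 3.55e-04 and a fold of 1.79. Neither gamma chain overlapped between the ages, and both stayed below the 2-fold threshold.

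Of the beta chains, Lamb1 and Lamb2 separated the ages only within a dissection set, and Lamb3 did so over all arrays. Lamb1 had log2 signals of 10.18 to 11.09 at P0, with a median of 10.65, and of 9.63 to 10.60 at P8, with a median of 10.13, so that the ages overlapped. Set 2 lay below set 1 in every group, by 0.70 on average, and the difference of P8 and P0 was −0.54 in set 1 and −0.52 in set 2. The adjusted p of this difference, −0.53 ± 0.25 (SE), was 0.182 without and 5.78e-05 with the dissection set as a block. The fold was 1.45. Regions of a pool still count as separate arrays with that block, and over the alternatives run the adjusted p reached 0.660. Lamb2, the beta chain of the neuromuscular junction and the kidney filter, stood at 0.31 ± 0.13 (SE) with an adjusted p of 0.153, or of 0.00236 with the block. Lamb3, an epithelial chain, had log2 signals of 6.49 to 6.86 at P0, with a median of 6.78, and of 6.88 to 7.39 at P8, with a median of 7.15, with a difference of 0.38 ± 0.10 (SE), an adjusted p of 0.0263 and a fold of 1.30. The nidogens differed in sign, with 0.22 ± 0.10 (SE) and an adjusted p of 0.188 for Nid1 and −0.46 ± 0.14 (SE) and an adjusted p of 0.0466 for Nid2.

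**Figure D3:**
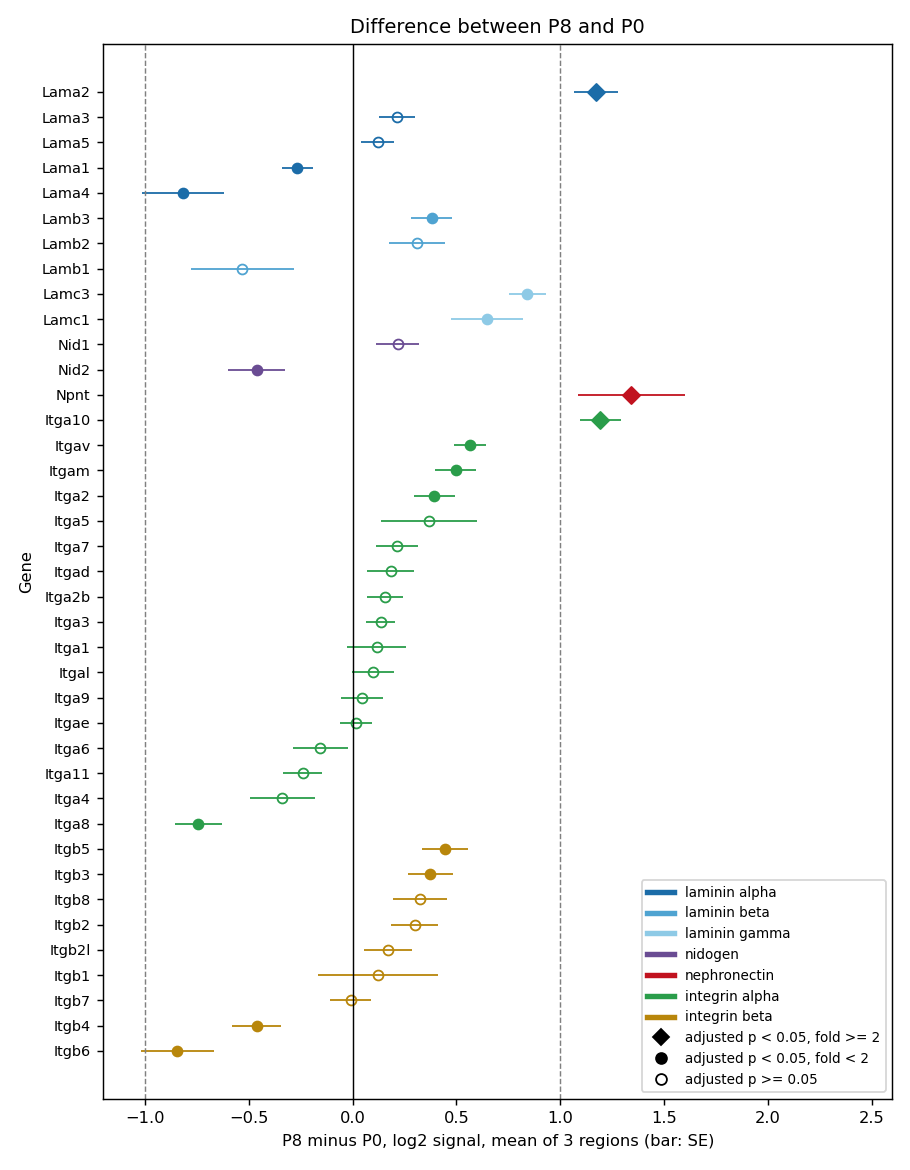
Difference of P8 and P0 in log2 signal, as the mean of 3 regions with its SE (horizontal axis), for the 39 tested genes (vertical axis) coloured by family. Dashed lines mark a fold of 2. Npnt, Itga10 and Lama2 lie beyond it to the right, and Itgb6, Lama4 and Itga8 lie farthest to the left.

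Integrin chains that pair into receptors for fibronectin and vitronectin differed from each other in sign. Itgav, the alpha chain shared by several such receptors, had log2 signals of 9.65 to 9.93 at P0, with a median of 9.77, and of 10.23 to 10.51 at P8, with a median of 10.38. The ages did not overlap, and the difference was 0.57 ± 0.08 (SE) with an adjusted p of 0.00125 and a fold of 1.48. Its beta partners Itgb3, Itgb5 and Itgb8 were on the same side and Itgb6 on the other. Itgb5 stood at 0.44 with an adjusted p of 0.0245 and a fold of 1.36, and Itgb3 at 0.37 with an adjusted p of 0.0429 and a fold of 1.30. Itgb8 stood at 0.33 with an adjusted p of 0.125, or of 0.0339 with the block.

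Itgb6, the epithelial partner of Itgav in a receptor that activates latent TGF-beta, was lower at P8. Its log2 signal lay between 8.01 and 9.43 at P0, with a median of 8.91, and between 7.17 and 8.90 at P8, with a median of 8.07. The ages overlapped because the regions differed, and in each region and set the P8 array was below the P0 array. The difference was −0.84 ± 0.17 (SE) with an adjusted p of 0.0103 and a fold of 1.80, and by region it came to −0.96 (base), −1.05 (middle) and −0.52 (apex). Itga5, the classical fibronectin receptor chain, stood at 0.37 ± 0.23 (SE) with an adjusted p of 0.322, or of 0.00121 with the dissection set as a block, and Itga2b, the platelet chain, at 0.16 with an adjusted p of 0.257.

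The laminin-binding chains gave small differences. Itga3 stood at 0.13, Itga6 at −0.16 and Itga7 at 0.22, with adjusted p of 0.221, 0.471 and 0.182. Itgb4, which pairs with Itga6 in hemidesmosomes, had log2 signals of 8.25 to 8.75 at P0 and of 7.93 to 8.25 at P8, with a difference of −0.46 ± 0.12 (SE), an adjusted p of 0.0245 and a fold of 1.38. Itga4 and Itga9, related chains that bind cell-surface and matrix ligands, stood at −0.34 and 0.05 with adjusted p of 0.183 and 0.803.

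Of the chains used mainly by leukocytes, Itgam had log2 signals of 6.31 to 6.46 at P0, with a median of 6.40, and of 6.58 to 7.09 at P8, with a median of 6.91, without overlap. The difference was 0.50 ± 0.10 (SE), with an adjusted p of 0.00841 and a fold of 1.41. Its partner Itgb2 stood at 0.30 with an adjusted p of 0.103, or of 0.0242 with the block, Itgal at 0.10, Itgad at 0.18, Itgae at 0.02 and Itgb7 at −0.01, with adjusted p between 0.311 and 0.964 for the last 4. Itgb2l, a gene similar to Itgb2, stood at 0.17 with an adjusted p of 0.356. Of the 12 leukocyte markers, 11 were higher at P8 and none passed the test, with a summed log2 level of 11.4 to 11.8 at P0 and of 12.0 to 12.3 at P8. Their part in the result was not tested.

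Across the 39 genes, 17 passed on the adjusted p alone, 11 higher and 6 lower at P8, beside 18.7% of all tested genes (9.52% higher and 9.19% lower). The arrays of the ages did not overlap for 13 of the 39 genes, 9 higher and 4 lower at P8, beside 15.5% of all tested genes (8.08% higher and 7.41% lower). Within each dissection set, the 3 arrays of P8 did not overlap with the 3 of P0, in the same direction, for 17 of the 39 genes, 12 higher and 5 lower, beside 28.5% of all tested genes (14.0% higher and 14.5% lower). These counts treat the 3 regions of a pool as separate arrays, and the 6 arrays of an age rest on 2 pools. Over the alternatives run, the adjusted p reached 0.219 for Itga8, 0.136 for Lamc3, 0.301 for Itgb6 and 0.360 for Lama4. The sign was the same in both sets for 32 of the 39 genes. For 8 of the 39 genes, Itga5, Itga9, Itgad, Itgae, Itgb1, Itgb7, Lamb1 and Lamb2, the sets differed more than the ages. Agreement in sign and larger set differences were not counted over all tested genes, so no share stands beside them.

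Markers of other cell types also differed between the ages. All 5 bone markers measured passed with higher signal at P8, with a summed log2 level of 8.78 to 9.46 at P0 and of 11.1 to 12.7 at P8, and of the 6 spiral ganglion neuron markers 3 passed with lower signal, with 11.3 to 11.9 at P0 and 9.24 to 10.3 at P8. Cartilage markers summed to 12.3 to 13.4 at P0 and 12.7 to 14.1 at P8, with 1 of 8, Matn1, past the test and lower. Schwann cell and myelin markers summed to 11.4 to 11.9 and 12.1 to 13.0, with 1 of 5, Pmp22, past the test and higher. Endothelial markers summed to 11.8 to 12.3 and 12.1 to 12.5 with none of 7 past the test, and epithelial markers to 12.5 to 13.0 and 12.3 to 12.6 with 1 of 5, Cldn6, past and lower. Skeletal muscle markers, of which Myh3, Mylpf and Myh1 had a mean under 6 over the 12 arrays, summed to 9.87 to 11.4 at P0 and 9.91 to 10.1 at P8, and those of platelets to 8.91 to 9.12 and 8.85 to 9.15. Of 5 spiral ligament fibrocyte markers 4 were higher at P8, with a median difference of 0.56, and Otos passed at 2.63. The hair cell marker Slc26a5 passed at 3.05 and the supporting cell marker Prox1 passed lower at −1.38, each as the only one of 6 in its list. Of 5 strial markers, Kcnj10 and Kcnq1 passed with higher signal at P8, and the list summed to 12.2 to 12.9 at P0 and 13.0 to 13.6 at P8. The part of these cells in the differences of Lama2, Lama4, Itga10, Itgb4 and Itga2b was not tested.

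Along the cochlea, Itgb6 was the member with the largest difference at both ages. At P0 its log2 signal was 8.01 and 8.65 for the base, 8.81 and 9.43 for the middle and 9.01 and 9.41 for the apex, for set 1 and set 2. Both apex arrays were above both base arrays. The difference of apex and base was 0.88 ± 0.30 (SE), with an unadjusted limma p of 0.0177 that did not pass after adjustment. The adjusted p was 8.67e-04 with each pool as a block and 0.0117 with the dissection set as a block. At P8 the values were 7.17 and 7.57 for the base, 7.90 and 8.24 for the middle and 8.49 and 8.90 in the apex. The arrays of the 3 regions did not overlap, and the order from base to apex was the same in both sets. The difference of apex and base was 1.32 ± 0.30 (SE), at 1.32 in set 1 and 1.33 in set 2. Its adjusted p was 0.251, or 1.50e-05 with each pool as a block, and 4.95e-04 with the dissection set as a block. The change of the difference from P0 to P8 was 0.44 ± 0.43 (SE), with an unadjusted limma p of 0.328, and an adjusted p of 0.687 with the block.

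With the block, Itgb6 kept its call at P8 without any single array, with an adjusted p of at most 0.0172. At P0 the call was lost without the P0 base of set 1 (adjusted p of 0.110), the P0 base of set 2 (0.0648) or the P0 apex of set 1 (0.0958). Supporting cell markers were higher towards the apex in the same tissue, with a median difference of 0.53 at P0 and 1.13 at P8 over 6 markers, of which 1, Jag1, passed at P8 and 4 with the block. Hair cell markers were also higher in the P8 apex, 6 of 6 with a median difference of 0.48, of which none passed without and 2, Otof and Slc26a5, with the block. Epithelial markers had median differences of 0.14 at P0 and −0.08 at P8. The part of these cells in the difference of Itgb6 was not tested.

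In the fit without a block, none of the 39 genes passed between apex and base at either age, beside 0.00613% of all tested genes at P0 and 0.196% at P8. At an unadjusted limma p under 0.05 with the fold, 2 passed at P0, Itga4 and Itgb6, beside 1.15%, and 2 at P8, Itgb6 and Nid2, beside 1.95%. With the block, Itgb6 passed at P0, beside 0.675% of all tested genes, and Itgb6 and Nid2 at P8, beside 1.58%. With each pool as a block, Itgb6 and Itga4 passed at P0, beside 1.42%, and Itgb6 and Nid2 at P8, beside 2.81%. The median difference over the 39 genes was −0.08 at P0 and −0.04 at P8, beside 0.03 and 0.00 over all tested genes. Of the 39 genes, 27 were lower in the apex at P0 and 23 at P8, beside 6981 and 8059 of the 16306 tested genes. Apex and base arrays did not overlap for 12 genes at P0, 5 higher and 7 lower in the apex, beside 21.5% of all tested genes (12.0% higher and 9.48% lower). At P8 they did not overlap for 16 genes, 6 higher and 10 lower, beside 26.8% (15.0% higher and 11.9% lower).

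**Figure D4:**
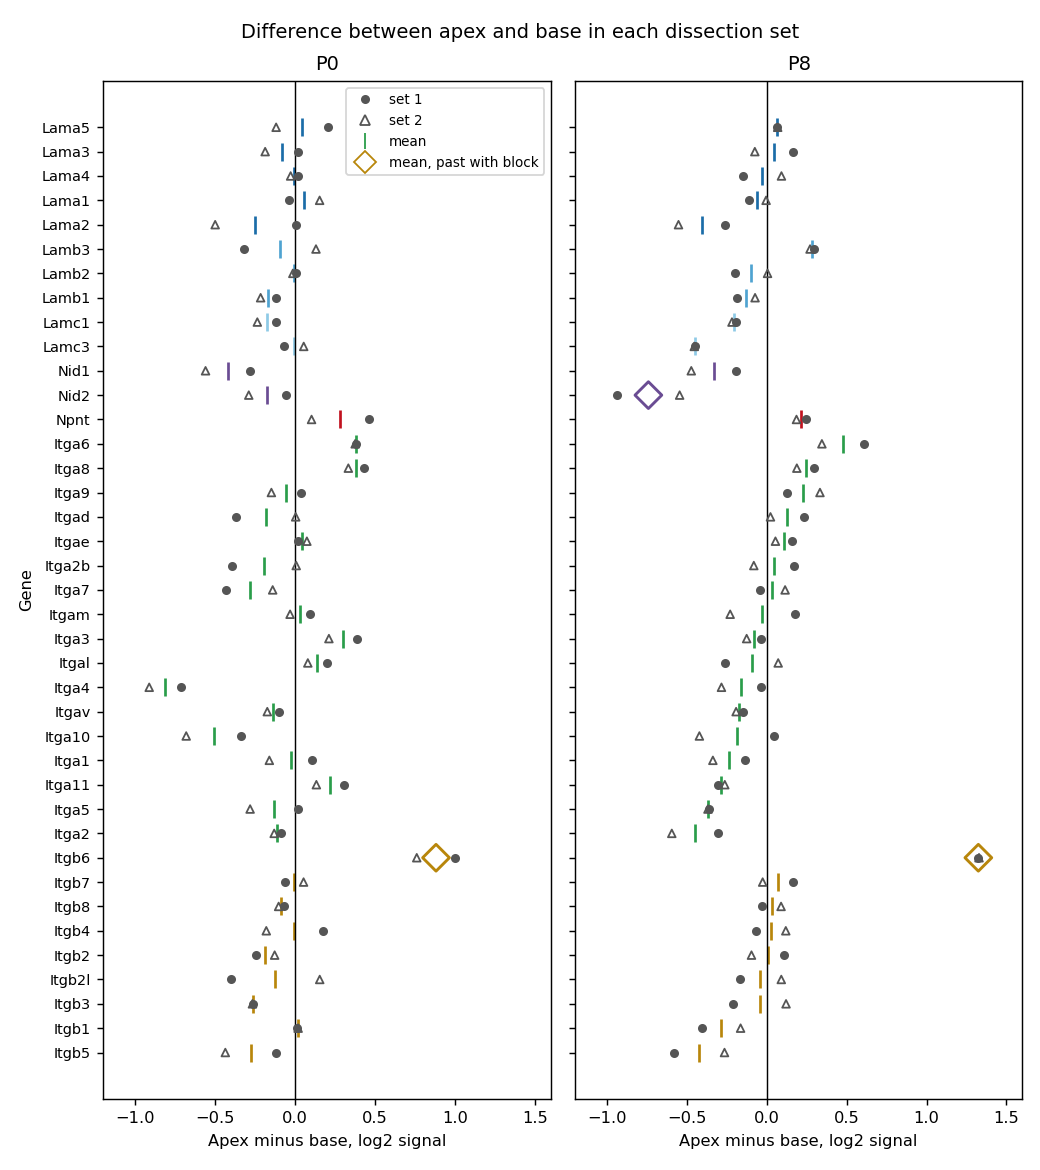
Difference of apex and base in log2 signal (horizontal axes) for the 39 tested genes (vertical axis) at P0 (left) and P8 (right), with circles for dissection set 1, triangles for set 2, ticks for the mean and open diamonds for means past the test with the block. Itgb6 lies at 0.88 at P0 and 1.32 at P8, and Nid2 at −0.74 at P8.

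Nid2, a nidogen of basement membranes, had log2 signals of 10.21 and 9.82 in the base, 9.91 and 9.61 in the middle and 9.28 and 9.28 in the apex at P8. Both apex arrays were below all other P8 arrays. The difference of apex and base was −0.74 ± 0.24 (SE), at −0.94 in set 1 and −0.54 in set 2. Its adjusted p was 0.706, or 0.00294 with each pool as a block, and 0.0194 with the dissection set as a block. That call was lost without the P8 base of set 1 (adjusted p of 0.216), the P8 base of set 2 (0.132) or the P8 apex of set 1 (0.219). At P0 the signals were 10.33 and 10.02 in the base, 10.45 and 10.09 in the middle and 10.27 and 9.72 in the apex, with a difference of −0.17 ± 0.24 (SE) and overlapping arrays. The change of the difference was −0.57 ± 0.33 (SE), with an unadjusted limma p of 0.126, and an adjusted p of 0.573 with the block.

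Nid1, the other nidogen, was also lower in the apex, without passing. It had log2 signals of 9.96 and 10.40 in the P0 base, 9.96 and 10.12 in the P0 middle and 9.67 and 9.84 in the P0 apex, with a difference of −0.42 ± 0.18 (SE). At P8 it had 10.26 and 10.42 in the base, 10.38 and 10.16 in the middle and 10.07 and 9.95 in the apex, with a difference of −0.33 ± 0.18 (SE). Apex and base did not overlap at either age, and with the block the adjusted p was 0.420 at P0 and 0.442 at P8.

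Itga4, a chain of receptors for VCAM1 and fibronectin, had its highest values in the base and its lowest in the apex at P0. Its log2 signals were 8.95 and 9.38 in the base, 8.57 and 8.87 in the middle and 8.23 and 8.46 in the apex. Each set showed the same order of regions. The difference of apex and base was −0.81 ± 0.27 (SE), with an unadjusted limma p of 0.0158 that did not pass after adjustment, and an adjusted p of 0.249 with the dissection set and of 0.00187 with each pool as a block. At P8 the signals were 8.61 and 8.31 in the base, 8.76 and 8.15 in the middle and 8.57 and 8.03 in the apex, and the difference was −0.16 ± 0.27 (SE). The sets were farther apart than the regions at P8. Itgb6, Itga4 and Nid2 had been listed by the study as differing along the cochlea on these samples, so that their differences are no independent evidence.

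Itga6, a laminin receptor chain of epithelia, was higher in the apex at both ages, without passing. At P0 its log2 signals were 10.23 and 10.45 in the base, 10.46 and 10.75 in the middle and 10.61 and 10.83 in the apex, and the difference of apex and base was 0.38 in each set. At P8 they were 10.16 and 10.11 in the base, 10.77 and 10.12 in the middle and 10.77 and 10.46 in the apex, with a difference of 0.48 ± 0.23 (SE). The adjusted p with the block was 0.674 at P0 and 0.398 at P8. Itga8 had differences of 0.38 ± 0.20 (SE) at P0 and 0.24 ± 0.20 (SE) at P8, with adjusted p of 0.233 and 0.429 with the block, and Npnt, its ligand, of 0.28 ± 0.45 (SE) and 0.21 ± 0.45 (SE), with 0.716 and 0.760.

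Several genes that were higher at P8 were lower in the apex than in the base. At P0 the log2 signals of Itga10 were 8.41 and 8.69 in the base, 8.21 and 8.54 in the middle and 8.07 and 8.00 in the apex, with a difference of −0.51 ± 0.17 (SE) and an adjusted p of 0.244 with the block, while at P8 the difference was −0.19 ± 0.17 (SE). At P8 the signals of Lamc3 were 8.65 and 8.59 in the base, 8.32 and 8.55 in the middle and 8.21 and 8.14 in the apex, with a difference of −0.45 in each set and an adjusted p of 0.143 with the block. Those of Itga2 were 8.72 and 8.97 in the base, 8.70 and 8.62 in the middle and 8.42 and 8.38 in the apex, with a difference of −0.45 ± 0.17 (SE) and 0.174. Lamb3 ran the other way at P8, with 6.88 and 7.12 in the base, 6.99 and 7.19 in the middle and 7.18 and 7.39 in the apex, and a difference of 0.28 ± 0.17 (SE) with 0.442. None of these 4 passed. Bone markers were lower in the P8 apex, with a median difference of −1.25 over 5 markers, and cartilage markers had a median difference of −0.44 over 8. Their part in these differences was not tested.

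**Figure D5:**
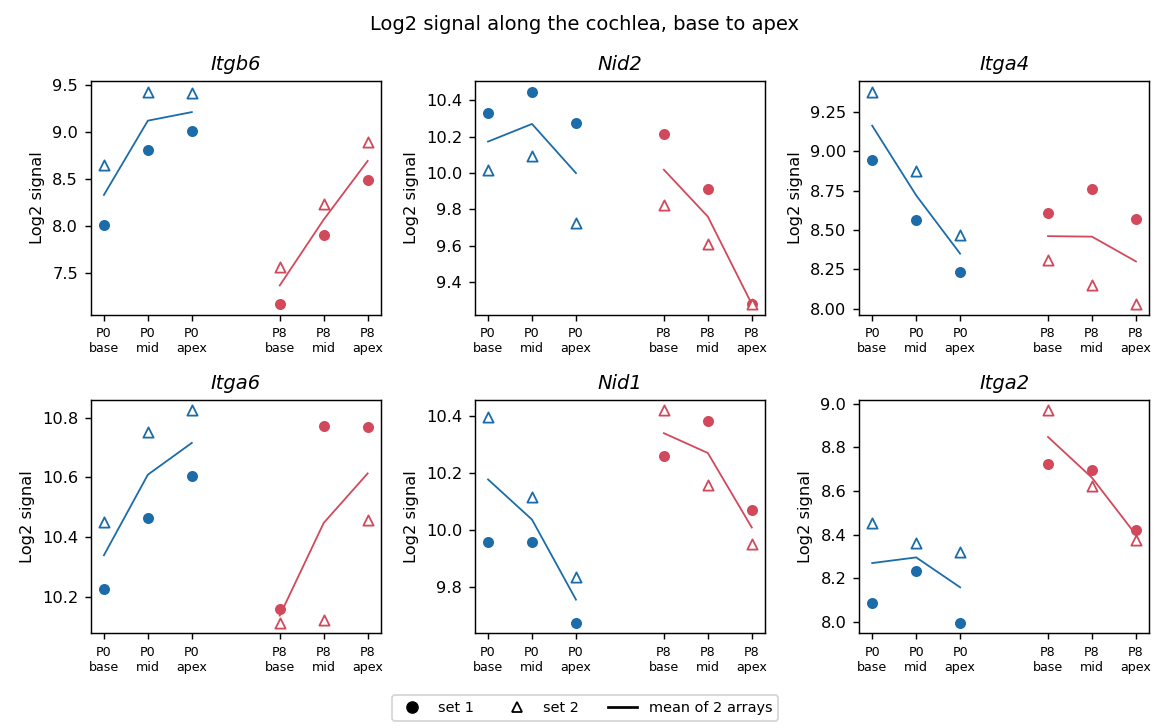
Log2 signal (vertical axes) of Itgb6, Nid2, Itga4, Itga6, Nid1 and Itga2 in base, middle and apex at P0 (blue) and P8 (red), with circles for dissection set 1, triangles for set 2 and lines through the means of 2 arrays. Itgb6 climbs from base to apex at both ages, Nid2 drops towards the apex at P8, and Itga4 drops at P0.

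The change of the difference between apex and base from P0 to P8 passed for none of the 39 genes with limma, beside 0% of all tested genes, and for none at an unadjusted p under 0.05, beside 2.04% of all tested genes at that p. With the block it passed for none of the 39 and for 0.178% of all tested genes. The changes ran from −0.57 for Nid2 to 0.65 for Itga4.

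Other genes of the same pathway were counted in the same fit, beside the 3.20% of all tested genes that passed for P8 over P0 (2.06% higher and 1.14% lower). With pool means 5 genes passed in the whole series. Of 16 collagen IV and other basement membrane genes, Col4a3 and Col4a4, chains of the adult collagen IV network, rose from P0 to P8 by 1.48 ± 0.16 (SE) and 1.18 ± 0.21 (SE) on the log2 scale, with adjusted p of 3.41e-04 and 0.00490. Smoc2, a matricellular calcium-binding protein, fell by 2.39, and Fras1, a protein of epithelial basement membranes, fell by 1.19, with adjusted p of 9.95e-06 and 1.19e-04. Of 5 netrins, which resemble laminin chains, Ntn4 rose by 1.70 ± 0.10 (SE) with an adjusted p of 1.92e-05. Of 10 receptors for laminin other than integrins and their partners, Bcam, a receptor of Lama5, rose by 1.65 ± 0.08 (SE) with an adjusted p of 7.03e-06.

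Of 21 other integrin ligands, 10 were higher at P8, and 3 passed the test, all with lower signal at P8. Tnc (tenascin C) fell by 1.88, Postn (periostin) fell by 1.44 and Egfl6 fell by 1.11, with adjusted p of 0.00114, 2.15e-04 and 0.00283. Under the 2-fold threshold, Vtn, Tgfb1 and Icam1 rose by 0.63, 0.53 and 0.32, with adjusted p of 0.0414, 0.00282 and 0.0220. Tnc was higher in the P8 apex by 2.53 ± 0.44 (SE), with an adjusted p of 0.0965 and of 5.69e-04 with the block, and the fibronectin gene Fn1 by 0.81 ± 0.19 (SE), with 0.279 and 0.0149. Edil3, a ligand of Itgav receptors, was lower there, at −0.87 ± 0.17 (SE), with 0.168 and 0.0197. Of 24 integrin adaptors and activators, Lims2 and Actn1, which link integrins to actin, rose by 1.21 ± 0.11 (SE) and 1.20 ± 0.15 (SE), with adjusted p of 1.33e-04 and 9.03e-04. None of these pathway genes passed between apex and base without the block at either age.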

How the data were processed

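Log2 signals of 12 Affymetrix Mouse Gene 1.0 ST arrays were used as deposited: per the labels and the methods, the authors estimated expression by robust multiarray averaging (RMA), and no version and no statement on whether both dissection sets went through the same run are given in the sources used here. The probe-level data were not used here. Of 35556 entries, 21789 carried 1 gene symbol, 1621 several and 12146 none, and only the first kind was used. The 3 entries shared by Rpl35 and Itgam fell under the second. A gene with several entries, as Itgad, kept the entry whose mean over the 12 arrays was highest. The array medians over all entries were 7.21 to 7.29.

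The 6 group means were fitted together with limma 3.58.1 (lmFit, eBayes) in R 4.3.3, with 6 residual and 2.78 prior degrees of freedom, without a block, because the methods name an unpaired test. Adjusted p are limma's, over 16306 genes. The dissection set was the replicate block. The sample titles carry a year, which was taken as the set of each array. Dissection and any other step that differed by year therefore cannot be told apart. Same-numbered arrays deviated together in all 15 pairs of groups, with correlations of 0.544 to 0.916. The pool of each age was a further block. Regions of a pool are not independent, so 6 arrays per age rest on 2 pools. The number of arrays limits the precision.

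Genes given array by array were those past a test without or with the replicate block, the 6 the study lists, and those with the highest and lowest differences (4 each for age, 3 each for apex and base at each age). Members and lists were chosen with earlier results of these data known. The fit was tested on simulated data, in which 96% of genes with a planted log2 difference of 1.5 were recovered for P8 over P0 and 81% for apex over base at P8. With the replicate block the shares were 96% and 74%. The simulated arrays varied independently, without the shift between sets that the data show. These shares therefore do not measure recovery in these data. RefSeq sequences are of build GRCm38.p6. Tables were made with pandas 2.3.3 and numpy 2.4.6 under Python 3.11.15, and figures with matplotlib 3.10.9. Alternatives tried were both blocks, the level of 6 raised to 7 or dropped, the mean of a gene's entries, quantile normalization again, median centring, a trended and robust prior, the methods' t-test, pool means, other folds, and leaving out each array.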

Additional observations from a re-analysis of the deposited data

How the results depend on the processing

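When the dissection set entered as the replicate block, the genes past the test between apex and base numbered 1 at P0 and 2 at P8, and with the pool of each age as a block 2 at P0 and 2 at P8, against 0 at either age without a block. The methods' t-test on unadjusted p gave none at P0 and 1 at P8, Itgb6, and after Benjamini-Hochberg adjustment 0. Itga4 at P0 and Nid2 at P8, which the study lists, thus did not pass that t-test here. For P8 over P0, the 3 genes became 0 with pool means, 8 with a fold of at least 1.5, and, in settings chosen after seeing the data, 17 with no fold threshold and 24 with no fold threshold and the block, beside 9.43%, 18.7% and 41.3% of all tested genes for the last 3. Leaving out each array in turn gave 3 genes every time for P8 over P0 (Itga10, Lama2 and Npnt) and 0 for the other comparisons. With the block, in a setting also chosen after seeing the data, it gave 0 to 1 at P0 and 1 to 2 at P8 between apex and base. The differences of the genes with the highest and lowest values in each comparison kept their sign under every alternative run. Elsewhere, leaving out 1 of the 4 arrays turned the sign of the apex-base difference for 22 of the 39 genes at P0 and 20 at P8, none of them past a test. Among these, Nid2 at P0 went from −0.17 to 0.10 without the P0 apex of set 2, Itga4 at P8 from −0.16 to 0.11 without the P8 apex of set 2, and Npnt at P0 from 0.28 to −0.34 without the P0 base of set 1. Among the 39 genes the replicate block changed no call on the thresholds used other than those of Itgb6 and Nid2. The spread between 2 arrays of a group, and signals near the log2 level of 6 as for Itgae, limit what can be detected.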
